A study of Mus musculus with 2 samples.

Results

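The genes described here are a panel of ERK feedback and output genes: the Sprouty genes Spry1, Spry2 and Spry4, the Sprouty-related genes Spred1 and Spred2, the MAP kinase phosphatase genes Dusp4 and Dusp6, and the ETS transcription factor genes Etv1, Etv4 and Etv5. They were chosen by gene symbol, with earlier results of these data known, and all 10 were found among the 23889 symbols measured. RNA sequencing was done on E14 cells, a mouse embryonic stem cell (mESC) line from a mouse whose strain the labels write as 19/Ola. The cells were grown without feeder cells on gelatin in serum medium with LIF, a cytokine that sustains self-renewal. The 2 groups, of 1 library each, were cells with a control shRNA and cells with a short hairpin RNA against the deubiquitinase USP21 (USP21 shRNA), and both were harvested 3 days after transfection. The labels give the control cells a normal genotype, and do not name the hairpin sequences or say whether the cultures were pooled. The authors deposited 1 FPKM value per gene and library (fragments per kilobase of transcript and per fixed number of mapped fragments). With 1 library per group there is no replicate error, so no difference below has a test, an SD or a p-value, and a difference between the shRNAs cannot be told apart from one between cultures or library preparations.

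ERK is the last kinase of a relay that runs from growth factor receptors through RAS, RAF and MEK, and in mESCs FGF4 is the main ligand that feeds it and primes the cells for differentiation. Active ERK raises the transcripts of its own brakes. Sprouty and Spred proteins act upstream at the level of RAS and RAF, Dusp4 and Dusp6 remove the activating phosphates from ERK itself, and the PEA3 group factors Etv1, Etv4 and Etv5 carry the signal to target genes. For this reason such transcripts are commonly read as a gauge of pathway output. ERK was one of the inputs to USP21 that the study examined, and the comparison made here asks how the transcripts that follow ERK stood when USP21 was knocked down.

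The knockdown and the identity of the cells were looked at first. Usp21 itself stood at an FPKM of 26.2 in control cells and 3.49 after knockdown, a log2 ratio of -2.87. Differences are given on the scale of log2(FPKM + 0.1), USP21 shRNA minus control shRNA, which shrinks those of low genes. They were computed for the 11927 genes that reached an FPKM of 1 in either library. The median log2 ratio of these genes was 0.0031. All 10 markers of embryonic stem cells were well above this floor in both libraries, with a summed FPKM of 4452 with the control shRNA and 3435 after the knockdown, and 8 of the 10 were lower in the latter. The 8 fibroblast markers summed to 19.9 and 7.19, most of it from Thy1 (17.3 and 5.29), and Lum was listed at 0 in both libraries. The 7 primitive endoderm markers summed to 50.2 and 44.0, the 6 mesoderm markers to 3.25 and 4.28, and the 4 trophectoderm markers to 9.56 and 12.1. Of the primitive endoderm markers 3 were higher and 4 lower after the knockdown. In mesoderm, Hand1 (0.403 and 1.25) was higher and Mixl1 (1.06 and 0.613) lower. Most of the trophectoderm sum came from Tfap2c (8.83 and 11.4), while Cdx2, Elf5 and Krt7 were below an FPKM of 1 in both libraries. The 5 neural markers summed to 46.3 and 31.2, most of it from Tubb3 (38.5 and 20.4), while Sox1 (6.08 and 8.30) and Nes (1.71 and 2.42) were higher after the knockdown. The 4 epiblast markers summed to 30.9 and 35.1, most of it from Dnmt3b (24.5 and 23.9), with Otx2 at 4.42 and 8.78. Pou3f1 was at 1.83 and 2.40, and Fgf5 was below an FPKM of 1 in both libraries, at 0.0999 and 0.0517. The part of such cells in the values below was not tested. In RNA from whole cultures, more cells with a transcript and more of it per cell cannot be told apart.

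All 10 genes of the panel had a higher FPKM with the USP21 shRNA than with the control shRNA, as did 50.4% of all genes compared. Their median log2 ratio was 0.48. Grouped by role, the phosphatase genes had the largest ratio. Summed over Dusp4 and Dusp6 their FPKM was 33.8 with the control shRNA and 56.3 after knockdown, 1.67 times as high. The Spred genes together were 1.40 times and the Sprouty genes 1.35 times as high. The PEA3 group as a whole was 1.06 times as high, with Etv4 and Etv5, its most abundant genes, at log2 ratios of 0.079 and 0.023 and Etv1 at 1.01, the highest of the 10.

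**Figure D1:**
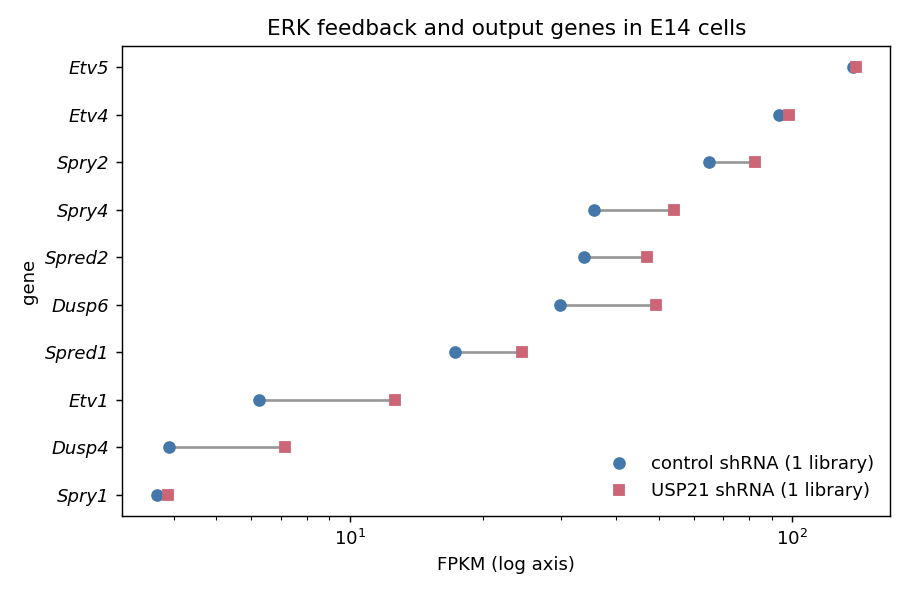
FPKM of each gene of the panel on a log axis, with a circle for the control shRNA library and a square for the USP21 shRNA library (1 library each, so there are no error bars), ordered by the control level. Every square lies to the right of its circle, by a factor of 2.03 for Etv1 and of 1.02 for Etv5.

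Spry4, Dusp4, Dusp6 and Etv1 were at least 1.5-fold higher with the USP21 shRNA, 4 of the 10, where 7.77% of all genes compared were that much higher. None of the 10 was at least 1.5-fold lower, a size that 6.46% of all genes reached. A 2-fold difference was reached by Etv1 alone, in the higher direction, against 2.30% of all genes higher and 2.03% lower by this much. Libraries can also be read against genes of like abundance, since low genes scatter more. Of the 10 genes, 7 lay above the 90th percentile of the genes within 2-fold of their own mean FPKM. The exceptions were Spry1, Etv4 and Etv5. As the panel was chosen with earlier results of these data known, these counts do not test it.

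**Figure D2:**
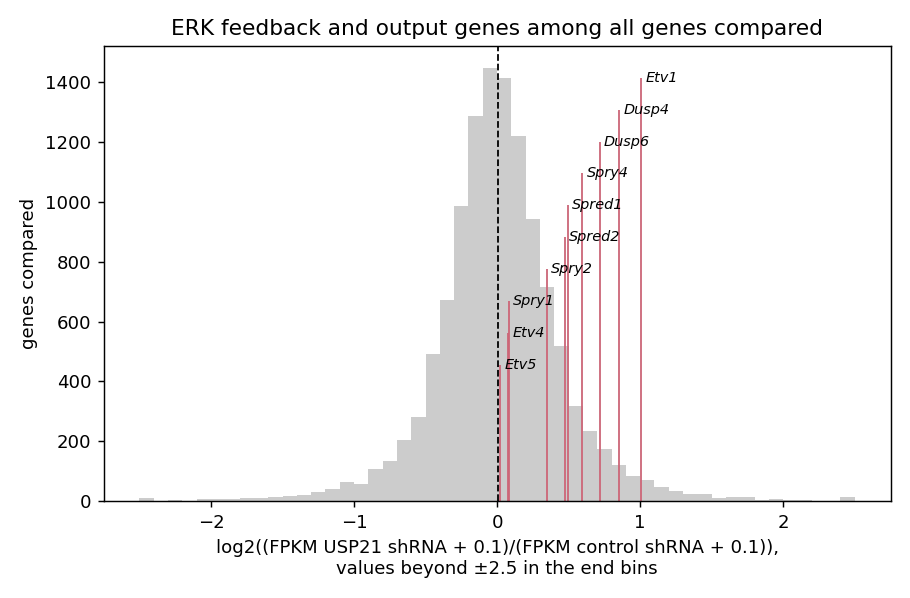
Histogram of the log2 ratio of the 11927 genes compared (grey, bins of 0.1; dashed line, their median of 0.0031), with a red line at the value of each gene of the panel (line height carries no value). The panel spans 0.023 for Etv5 to 1.01 for Etv1, all on the right of the median.

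Among the feedback inhibitors that act upstream, Spry2 was the most abundant Sprouty gene. Its FPKM was 65.0 with the control shRNA and 82.6 after USP21 knockdown, a log2 ratio of 0.35. Genes within 2-fold of its level ran from -0.40 at the 10th percentile to 0.26 at the 90th, so Spry2 lay just beyond the bulk of them. Spry4 stood at 35.8 and 54.1, with a log2 ratio of 0.59, and 3.38% of the genes at its level were as high or higher. Spry1 was the least abundant of the panel, at 3.67 and 3.90. Its log2 ratio of 0.083 was close to the median of 0.064 of genes at that level. The Sprouty genes therefore kept their order of abundance in both libraries, Spry2 first and Spry1 last, with the largest relative difference in Spry4.

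The Spred proteins resemble the Sprouty proteins at one end and bring the RAS inhibitor neurofibromin to the membrane. Spred1 stood at an FPKM of 17.3 in control cells and 24.5 after USP21 knockdown, and Spred2 had 33.9 and 47.0. Their log2 ratios were nearly equal, 0.50 and 0.47, and neither reached 1.5-fold. Of the genes within 2-fold of their levels, 6.52% were as high as Spred1 and 5.56% as high as Spred2. The remaining paralog, Spred3, is no member of the panel and stood far lower, at 1.20 and 2.48 (log2 ratio 0.98). Spry3 was looked for and was not among the symbols measured.

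Dusp6 encodes a cytoplasmic phosphatase with a strong preference for ERK, and Dusp4 a nuclear one. Dusp6 stood at an FPKM of 29.9 in control cells and 49.2 after USP21 knockdown, a log2 ratio of 0.72, and 1.97% of the genes within 2-fold of its level were as high or higher. In Dusp4 the values were 3.90 and 7.13, a log2 ratio of 0.85, which 3.88% of genes at that level reached. Dusp6 was the more abundant by far in both libraries. Low genes scattered more widely (10th to 90th percentile -0.45 to 0.57 around Dusp4, and -0.37 to 0.33 around Dusp6), and a larger share of them reached the log2 ratio of Dusp4 than reached that of Dusp6 among its own neighbours.

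Of the transcription factor genes, Etv5 was the most abundant gene of the panel, with an FPKM of 137 in control cells and 139 after USP21 knockdown. Etv4 followed at 93.5 and 98.7. Their log2 ratios were 0.023 and 0.079. Of genes at their levels, 25.7% were as high as Etv5 and 23.8% as high as Etv4, so neither stood apart. Etv1 had the lowest level of this group and the largest difference, from 6.25 to 12.7, a log2 ratio of 1.01. By log2 ratio Etv1 ranked 268 from the top among the 11927 genes compared. Etv4 and Etv5 made up 54.1% of the summed FPKM of the panel with the control shRNA and 45.9% after USP21 knockdown. Without these 2 genes the sum of the others went from 195.7 to 281, 1.44 times as high, and with them it was 1.22 times as high.

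Some of these values rest partly on sequence that other annotated genes share. In GENCODE M21 (GRCm38), 34.1% of the 31-base words of the Etv5 transcript occur in Gm4798, and 20.3% of those of Etv1 occur in many other genes. For Spry1, 19.9% of the words lie in Gm42922, a gene of the opposite strand whose exons overlap those of Spry1, and whether the libraries kept the strand is not given in the sources used here. For the other 7 genes the share was between 0 and 4.39%. Neither Gm4798 nor Gm42922 was among the symbols measured. How fragments from shared stretches were assigned is not given in the sources used here either, so the levels of Etv5, Etv1 and Spry1 are uncertain in this respect.

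Transcript length moved with the difference between the libraries and bears on this panel. Among the 11378 genes with a length in GENCODE M21 (95.4% of those compared), the median log2 ratio was -0.16 in the shortest of 5 equal groups by transcript length, -0.0039 in the middle group and 0.17 in the longest. None of the panel fell in the shortest group, 2 were in the next, 3 in the middle, 3 in the one after it and 2, Spred1 and Etv1, in the longest. With the trend removed by a lowess fit on log2 length, the median of the panel was 0.39, and 9 of the 10 values stayed above 0. Of all 11378 genes so corrected, 5620 were above 0. Dusp4 (0.87), Dusp6 (0.73) and Etv1 (0.83) were still at least 1.5-fold higher, Spry4 was at 0.50, short of it, and Etv5 was at -0.023. After the same correction 809 of the 11378 genes were at least 1.5-fold higher. Spred1, at 0.34 after the correction, then lay below the uncorrected 90th percentile of 0.41 of the genes at its level, so that 6 of the 10 were above that mark in place of 7.

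**Figure D3:**
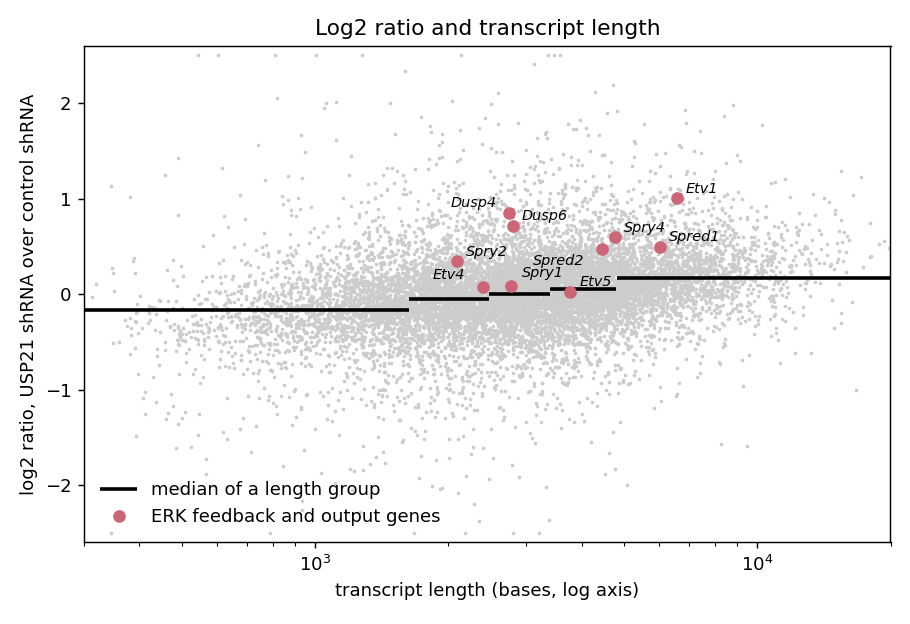
Log2 ratio against transcript length (log axis, limited to 300 to 20000 bases) for genes with a length in GENCODE M21 (grey, values beyond 2.5 in either direction drawn at the edge), with the median of each of 5 equal groups by length (black bars) and the panel in red. Medians climb from -0.16 to 0.17 with length, and Dusp4, Dusp6 and Etv1 lie well above the bar of their group.

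Promoter sequences were examined for letters that the panel might share. RefSeq promoter windows (GRCm38.p6, 250 bases before to 50 after the start site) were matched by symbol for 7 of the 10 genes, in 9 windows, since Etv1 and Etv5 have a pair of start sites each. Dusp4, Etv4 and Spry4 are not shown and are in none of the counts of panel windows. The panel's windows left out a chromosome that the windows of all genes kept, so a gene not shown may still have a window that matches its symbol. Both strands were searched for AGGAAG, a core that ETS factors can bind. It occurred in 4 of the 9 windows, and in 35.4% of 32817 windows of all genes. The 4 windows that hold it are printed because they join the gene with the largest difference, Etv1, and the one with the smallest, Etv5, and the capitals mark AGGAAG or its complement CTTCCT. They are Etv1 at chr12:38779832-38780131 (plus strand), Dusp6 at chr10:99262981-99263280 (plus strand), Spred2 at chr11:19924192-19924491 (plus strand) and Etv5 at chr16:22438319-22438618 (minus strand).
Etv1: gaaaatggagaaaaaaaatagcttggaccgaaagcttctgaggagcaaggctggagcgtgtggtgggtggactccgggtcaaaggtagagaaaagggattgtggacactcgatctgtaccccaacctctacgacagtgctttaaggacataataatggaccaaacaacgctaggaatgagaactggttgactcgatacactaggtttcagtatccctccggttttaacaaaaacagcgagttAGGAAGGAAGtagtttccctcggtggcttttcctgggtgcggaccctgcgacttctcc
Dusp6: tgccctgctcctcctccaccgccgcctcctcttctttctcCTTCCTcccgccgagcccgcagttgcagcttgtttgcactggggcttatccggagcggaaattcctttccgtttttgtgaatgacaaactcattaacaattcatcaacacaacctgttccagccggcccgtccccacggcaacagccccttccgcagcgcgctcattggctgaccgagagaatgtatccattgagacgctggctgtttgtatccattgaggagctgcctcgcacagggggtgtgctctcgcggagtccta
Spred2: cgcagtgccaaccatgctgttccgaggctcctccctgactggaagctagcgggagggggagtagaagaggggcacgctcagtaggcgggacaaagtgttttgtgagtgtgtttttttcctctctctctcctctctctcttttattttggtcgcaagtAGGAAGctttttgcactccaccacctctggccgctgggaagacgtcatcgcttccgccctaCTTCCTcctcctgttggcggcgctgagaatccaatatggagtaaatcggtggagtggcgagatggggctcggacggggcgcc
Etv5: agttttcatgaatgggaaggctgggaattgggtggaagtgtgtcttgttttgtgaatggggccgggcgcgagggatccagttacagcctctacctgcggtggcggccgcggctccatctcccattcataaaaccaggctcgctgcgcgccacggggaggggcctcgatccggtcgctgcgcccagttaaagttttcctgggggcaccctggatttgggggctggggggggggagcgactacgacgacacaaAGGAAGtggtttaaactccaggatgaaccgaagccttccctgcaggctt

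In Etv1 a pair of overlapping matches begin at positions -8 and -4, counted from the start site, and in Etv5 the match begins at base 2 of the transcript. Spred2 has matches at -93 and -32, and Dusp6 has 1 match, at -210. The windows with a match thus belong to genes whose log2 ratios covered the whole range of the panel. The longer ETS site CCGGAAGT, the cAMP response element TGACGTCA, the AP-1 site TGACTCA, the STAT-type site TTCNNNGAA and the CArG box of serum response factor were found in none of the 9 windows; they occur in 3.89%, 1.79%, 5.20%, 8.29% and 1.63% of all windows. The GC box GGGCGG was in 4 of the 9 and in 35.6% of all. GC content of the 9 windows ran from 44.0% to 74.0%, with a median of 60.0% against 52.7% over all windows.

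The panel was then set beside other genes of the pathway, grouped into lists by role from the ligand inward, and pairs of FPKM values give the control first. Of 8 FGF ligand genes, 5 were compared, 3 higher and 2 lower with the USP21 shRNA (median log2 ratio 0.079). Fgf4 was both the most abundant and the one with the highest log2 ratio, at 54.8 with the control shRNA and 74.0 after USP21 knockdown (0.43). Fgf17 had the lowest, at 23.5 and 16.0 (-0.55). All 13 receptor and adaptor genes were compared, of which 10 were higher (median 0.32, or 0.21 with the length correction). Fgfr2 had the highest log2 ratio, 1.69, at the low levels of 0.456 and 1.70, and Fgfr3 the lowest, -1.14, at 2.17 and 0.931. Each of them reached an FPKM of 1 only in the library where it was higher. The adaptor Grb2, which links receptors to the RAS activator Sos, was the most abundant in the control library, at 46.1 and 41.7, and Shc1, at 42.7 and 45.1, in the USP21 shRNA library.

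In the cascade from RAS to ERK and its RSK and MSK kinases, 18 of 19 genes were compared and 14 were higher. Their median log2 ratio was 0.19, or 0.13 with the length correction. Ksr1, a scaffold that holds RAF, MEK and ERK together, had the highest log2 ratio, 1.06, at 3.56 and 7.55. Map2k1, which encodes MEK1, had the lowest log2 ratio, -0.28, at 61.2 and 50.6. None of the 18 was at least 1.5-fold lower.

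Other genes of the families in the panel stood on both sides of 0. Of 8 further MAP kinase phosphatase genes, 6 were compared, 4 higher and 2 lower (median log2 ratio 0.33). Dusp16, which prefers the stress kinases, was at 7.93 and 16.9 (1.08), Dusp10 at 2.26 and 1.30 (-0.75), and Dusp9, the most abundant, at 87.1 and 100.0 (0.20). Of 10 further ETS genes 8 were compared, 4 on each side of 0, with a median of 0.0053 and none at 1.5-fold in either direction. Elk3 had the highest log2 ratio of these, 0.52 (3.62 and 5.22), and Ets2 the lowest, -0.35 (17.2 and 13.5). The ETS repressor gene Erf was the most abundant at 68.0 and 84.0.

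Transcripts outside these families that are known to follow ERK activity also differed among themselves. Of 8, 7 were compared, 4 higher and 3 lower (median log2 ratio 0.35). Phlda1 was at 11.1 and 25.0 (1.17) and the ephrin receptor gene Epha2, the most abundant in both libraries, at 71.0 and 97.9 (0.46). Ccnd1, which encodes the cell cycle protein cyclin D1, was at 59.3 and 48.3 (-0.30). Of 12 immediate early genes, which respond to ERK within minutes and also to handling and serum, 10 were compared and all 10 were higher, with a median of 0.40. Fosb had the highest log2 ratio, 1.36 (4.07 and 10.6), Srf the lowest, 0.048 (18.2 and 18.8), and Ier2 was the most abundant, at 95.2 and 108.5.

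**Figure D4:**
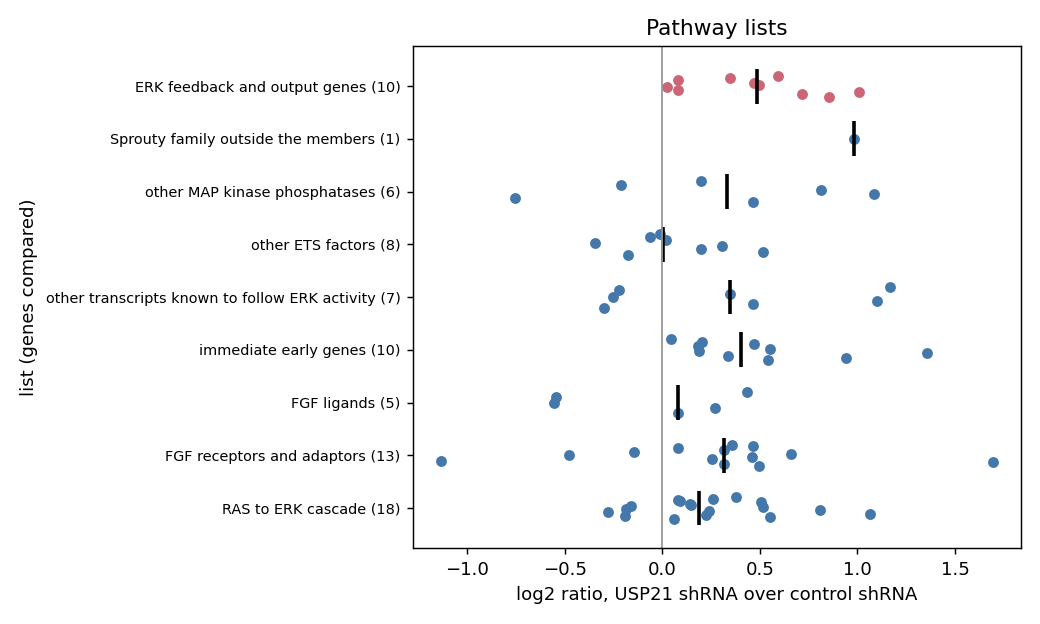
Log2 ratio of every gene compared in the panel (red) and in the other pathway lists (blue), 1 point per gene, with the median of each list as a black bar and the number of genes in brackets. The medians run from 0.0053 for the other ETS factors to 0.48 for the panel among the lists with more than 1 gene, and genes of the panel and of the immediate early list all lie to the right of 0.

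By level, the panel ranked in the control library from Etv5 through Etv4, Spry2, Spry4, Spred2, Dusp6, Spred1, Etv1 and Dusp4 down to Spry1. In the USP21 shRNA library the order was the same except that Dusp6 (49.2) stood above Spred2 (47.0). Since no spread between cultures was measured, it is not known which neighbours in this order differ.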

How the data were processed

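The deposited values are FPKM, 1 per gene symbol, for 2 E14 libraries, 1 per shRNA. The submitters' processing notes name CASAVA 1.8.2, TopHat2 2.0.14, Cufflinks 2.2.1 and the mm9 build, and the annotation, options and strand setting are not given in the sources used here. The paper does not describe this sequencing. No counts were used, so depth is known only in relative terms: steps of 1 fragment in 1439 genes under an FPKM of 0.1 make the control library about 1.24 times as deep as the other, and no interval for counting error was computed.

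Log2 ratios were computed with a pseudocount of 0.1 for genes that reached an FPKM of 1 in either library. No test was made, and shares of all genes past 1.5-fold and 2-fold give the background. Transcript lengths came from GENCODE M21 (the transcript with the longest coding sequence, lowess span 0.3), promoters from RefSeq, and no coordinates from the files. The panel and the lists were chosen with earlier results of these data known. Named genes are the panel, Usp21 and, in each list, the genes with the highest and lowest log2 ratio and the highest FPKM; Shc1 and the markers named beside their sums are outside this rule and were chosen after their values were seen. In the cascade list, a gene that this rule would name is not reported here. The code was tested on artificial data. Python 3.11.15, numpy 2.4.6, pandas 2.3.3, statsmodels 0.14.6 and matplotlib 3.10.9 were used.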

Additional observations from a re-analysis of the deposited data

How the results depend on the processing

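Values were recomputed with a pseudocount of 1 or 0.01, without the filter or with one at FPKM 5, with equal sums (TPM), a median log2 ratio of 0, upper-quartile scaling and the length correction. Of 190 recomputed values, 187 stayed within 1.5-fold of the reported one, taken as a shift of under 0.58 for log2 ratios and as a factor of up to 1.5 for counts, which leaves room for a log2 ratio near 0 to change several times over (with equal sums Spry1 was at 0.26 and Etv5 at 0.20). The exceptions were counts of panel genes at least 2-fold higher, 0 with a pseudocount of 1 and with the length correction, and 2 with equal sums, in place of 1. Neither filter setting alters the ratio of a single gene, so part of the 187 could not have moved. Of 79 values of single panel genes 78 were above 0, the exception being Etv5 at -0.023 with the length correction. A change of pseudocount or filter cannot change the sign of a gene's ratio, so this count is no check of direction. The panel's median ran from 0.39 with the length correction to 0.66 with equal sums, and from 3 to 6 genes were at least 1.5-fold higher. Equal sums shifted the median of all genes to 0.18 and so raised every gene alike, and 78.0% of the 1.5-fold differences over all genes were then in the higher direction, against 54.6% as reported. For differences of 2-fold these shares were 74.3% and 53.1%. Over all genes 927 were at least 1.5-fold higher and 771 lower, 607 and 512 with a pseudocount of 1, 1738 and 1514 with no filter, 496 and 408 with the filter at 5, and 1681 and 474 with equal sums. At 2-fold, 274 higher and 242 lower became 108 and 100, 521 and 459, 119 and 97, and 460 and 159. Spry1 and Spred3 did not pass the filter at FPKM 5. The FGF ligands' median was -0.061 with that filter, and that of the other ETS factors was -0.011 with it and -0.11 with the length correction, so their sign is not firm. The median of the other transcripts that follow ERK was 0.11 with the length correction. No paired analysis was possible because each group has 1 library. Depth in fragments is unknown, so counting error could not be set beside any difference.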

Other observations

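Fgfr2 and Fgfr3, which encode related receptors, went in opposite directions at low levels, from 0.456 to 1.70 and from 2.17 to 0.931, which was noticed after the values were seen and has no replicate check. Each passed the filter only through the library where it was higher, so the filter itself favours such differences. The genes that follow were also chosen after their values were seen. In the phosphatases Dusp5, another nuclear ERK phosphatase gene, was at 3.999 and 7.10 (0.81), close to the values of Dusp4. Among the immediate early genes Egr1 was at 39.5 and 75.9 (0.94), and Gab1, a docking adaptor of the receptors, was at 23.8 and 37.7 (0.66). Dusp5, Egr1 and Gab1 were all higher. In the phosphatase list, with 4 higher and 2 lower, Dusp7 was at 7.49 and 6.45 (-0.21). In the list of other transcripts known to follow ERK activity, with 4 higher and 3 lower, Myc was at 26.65 and 22.8 (-0.22) and Ier3 at 3.68 and 3.06 (-0.25).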
